A study of Rattus norvegicus with 6 samples.

Results

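miR-219 and miR-338 are the miRNAs most closely tied to oligodendrocytes, the cells that wrap axons in myelin. Their rows were taken from a table of small RNA read counts from the orbitofrontal cortex of rats by name: every row named miR-219a, miR-219b, miR-338 or miR-3065. This gave 8 of 842 rows, namely rno-miR-219a-5p, rno-miR-219a-2-3p, rno-miR-219a-1-3p, rno-miR-219b, rno-miR-338-5p, rno-miR-338-3p, rno-miR-3065-5p and rno-miR-3065-3p, written below without the species prefix. All 8 passed the filter on low counts, and 534 rows passed it in all.

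The orbitofrontal cortex, which helps to weigh the value of choices, came from adult male Sprague Dawley rats, with 3 libraries in each of 2 groups. Injured rats received repeated mild controlled cortical impact, in which a piston strikes the cortex, at 5 m/s and to a depth of 2 mm, in 3 surgeries on days 1, 4 and 7. Sham rats underwent surgery on the same days with no impact, so operation and handling were common to both groups. Tissue from frozen brains was collected on day 42, and the labels describe biological replicates without naming batch, pairing or the position of the impact. Replicate numbers only name libraries.

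A miRNA is cut from a hairpin RNA, whose 5p and 3p arms can each be loaded into an Argonaute protein, and it recognises target mRNAs mainly through its seed, bases 2 to 8 from the 5′ end. During oligodendrocyte maturation miR-219 and miR-338 rise, and in mice they repress factors that keep precursors immature or favour neuronal fate, among them Sox6, Hes5 and the PDGF receptor alpha. In the adult brain they are most abundant in myelin-rich tissue. In bulk tissue, fewer oligodendrocytes and less of these miRNAs per cell cannot be told apart.

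The mature sequences of the 8 members, from RefSeq (rat build GRCr8), are shown because their strands decide which counts are separate measurements. Each is written 5′ to 3′ with the seed in capitals.
miR-219a-5p: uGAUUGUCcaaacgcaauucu
miR-219a-2-3p: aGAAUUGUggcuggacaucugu
miR-219a-1-3p: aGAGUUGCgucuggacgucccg
miR-219b: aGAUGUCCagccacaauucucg
miR-338-5p: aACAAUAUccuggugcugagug
miR-338-3p: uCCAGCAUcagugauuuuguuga
miR-3065-5p: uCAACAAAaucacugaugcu
miR-3065-3p: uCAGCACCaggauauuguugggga
No 2 members share a seed. Among all other mature rat miRNAs in the RefSeq table, only miR-7a-1-3p shares a seed with a member, that of miR-3065-5p.

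miR-219a-5p can come from either of 2 hairpins, and its sequence is identical in them, so 1 row pools them. The 3p arms of these hairpins have rows of their own and are identical at 15 of 22 positions when set side by side without gaps. The hairpins follow, with the mature arms in capitals. Mir219-2 lies at chr3:33516504-33516599 on the minus strand and Mir219a1 at chr20:4831580-4831689 on the plus strand (GRCr8).
Mir219-2: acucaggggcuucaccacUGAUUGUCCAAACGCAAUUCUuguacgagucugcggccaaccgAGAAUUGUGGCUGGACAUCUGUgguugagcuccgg
Mir219a1: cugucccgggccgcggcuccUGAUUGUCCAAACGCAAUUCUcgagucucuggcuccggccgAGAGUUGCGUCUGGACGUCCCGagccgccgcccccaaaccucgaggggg
The miR-338 hairpin lies within the span of Aatk, a gene for a kinase of the nervous system, on the same strand as that gene. The miR-3065 hairpin is annotated on the opposite strand over the same bases. Mir338 spans chr10:105796342-105796407 on the minus strand and Mir3065 spans chr10:105796325-105796427 on the plus strand (GRCr8).
Mir338: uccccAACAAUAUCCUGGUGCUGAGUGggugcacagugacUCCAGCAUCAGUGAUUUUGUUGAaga
Mir3065: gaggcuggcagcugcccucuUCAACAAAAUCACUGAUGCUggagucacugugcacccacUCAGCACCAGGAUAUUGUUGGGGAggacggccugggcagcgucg

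The 8 rows did not hold 8 separate measurements, because 3 pairs of antisense names shared their counts. miR-338-3p and miR-3065-5p overlap over 20 bases on opposite strands, and their counts were identical in all 6 libraries. miR-219a-2-3p and miR-219b overlap over 20 bases, and miR-219a-2-3p had 42 to 82 reads more than miR-219b, at most 0.301% of its count. miR-338-5p and miR-3065-3p overlap over 19 bases, and miR-338-5p had 86 to 161 reads more, 3.50% to 4.55% of its count. An RNA strand can be read as only 1 member of such a pair, so the deposited counts do not say which strand was in the libraries. The names miR-219a-2-3p, miR-338-5p and miR-338-3p stand for these pairs below, and miR-219a-5p and miR-219a-1-3p complete the 5 measurements.

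Over the whole table, counts were shared by many, but not all, pairs of mature miRNAs annotated over each other. There were 40 such antisense pairs in which at least 1 row had a mean count of 100 or more, the 3 pairs above included. Of these 40, 22 had counts within 1% of each other in every library and 28 within 5%. All 18 pairs that overlap over 21 or 22 bases were within 1.20% of each other. Of 12 pairs that overlap over 20 bases, 5 were within 1% and 8 within 5%, and the largest difference was 19.6%. miR-338-3p with miR-3065-5p and miR-219a-2-3p with miR-219b were among those within 1%. Of 10 pairs that overlap over 17 to 19 bases, 2 were within 5%, miR-338-5p with miR-3065-3p being one of them, and the largest difference was 99.4%. Conversely, 24 pairs of rows were within 1% in all libraries, and in 23 of them both rows had RefSeq sequences. Of these 23, 22 were antisense pairs. How the reads were assigned to these names is not given in the sources used here, and its part in the shared counts was not tested.

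**Figure D1:**
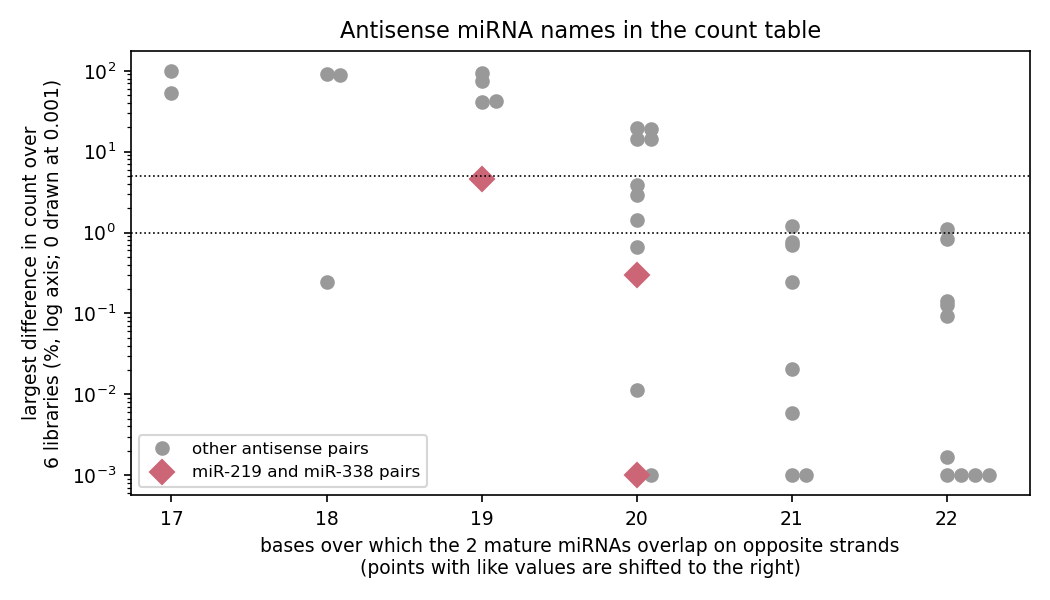
Each point is a pair of miRNA names annotated on opposite strands over the same bases, with the overlap in bases on the horizontal axis and the largest difference in count over 6 libraries, in % and on a log axis, on the vertical axis. The 3 miR-219 and miR-338 pairs (diamonds) lie at 0, 0.301% and 4.55%, and dotted lines mark 1% and 5%.

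Libraries held 12538288 to 23680840 counted reads, and no pair of them was so alike that it could be 1 library deposited again. CPM below means reads per 1000000 counted reads, with library sizes adjusted by trimmed-mean (TMM) scaling. Neuronal miR-124-3p, a marker of the labelled brain tissue, had at least 4012 CPM in every library. All 27 markers of the 9 cell type lists had reads in every library. Epithelial miRNAs of the miR-200 family stood apart in 2 libraries, with 3528 CPM summed over 5 markers in sham replicate 1 and 1715 CPM in injured replicate 2 against 7.68 to 197.3 CPM in the other 4.

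miR-219a-2-3p was the most abundant member. It had 20867, 17375 and 32388 reads in sham replicates 1, 2 and 3 and 25979, 14970 and 35319 reads in injured replicates 1, 2 and 3. As CPM these were 1632, 968 and 1204 in sham and 1209, 943 and 1531 in injured animals. Sham replicate 1 and injured replicate 3 were highest, sham replicate 2 and injured replicate 2 lowest, and the groups overlapped. The sham mean was 1268 ± 337 CPM and the injured mean 1227 ± 295 CPM (SD over 3 libraries). The log2 fold change of injured over sham was -0.05 ± 0.25 (SE), with a 95% interval from -0.63 to 0.54 and an adjusted p of 0.971 from edgeR's quasi-likelihood test with Benjamini-Hochberg adjustment over all 534 rows.

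miR-219a-5p, which in rodents is the arm shown to promote oligodendrocyte differentiation, was less abundant, with miR-219a-2-3p at 9.10 to 13.0 times its reads in a library. It had 1954, 1364 and 2747 reads in sham replicates 1, 2 and 3 and 2854, 1255 and 2716 in injured replicates 1, 2 and 3, which is 152.8, 76.0 and 102.1 CPM in sham against 132.8, 79.0 and 117.7 CPM after injury. Replicate 2 was lowest in either group, and the groups overlapped almost fully. The log2 fold change was -0.01 ± 0.31 (SE), with a 95% interval from -0.72 to 0.71 (edgeR adjusted p = 0.992).

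miR-219a-1-3p, from the chromosome 20 hairpin, was the rarest member. It had 60, 80 and 100 reads in sham replicates 1, 2 and 3 and 62, 81 and 128 in injured replicates 1, 2 and 3, or 4.69, 4.46 and 3.72 CPM against 2.89, 5.10 and 5.55 CPM. Injured libraries held both the lowest and the highest values. The log2 fold change was 0.07 ± 0.29 (SE), with a 95% interval from -0.61 to 0.76 (edgeR adjusted p = 0.954). Within a library, miR-219a-2-3p had 184.8 to 419.0 times the reads of miR-219a-1-3p.

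miR-338-3p, the arm of the Aatk hairpin that is mostly studied in oligodendrocytes and neurons, had 1778, 1564 and 3349 reads in sham replicates 1, 2 and 3 and 2639, 1113 and 2509 in injured replicates 1, 2 and 3. On the CPM scale it had 139.1, 87.1 and 124.5 in sham and 122.8, 70.1 and 108.8 in injured animals. Injured replicate 2 was lowest, and the other 2 injured libraries lay within the range of the sham libraries. Its sham mean was 116.9 ± 26.8 CPM and its injured mean 100.5 ± 27.3 CPM (SD over 3 libraries). The log2 fold change was -0.22 ± 0.27 (SE), the farthest from 0 among the members, with a 95% interval from -0.85 to 0.41 (edgeR adjusted p = 0.900).

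miR-338-5p, the other arm, had 2517, 2268 and 3453 reads in sham replicates 1, 2 and 3 and 3252, 1932 and 3822 in injured replicates 1, 2 and 3. These were 196.9, 126.3 and 128.4 CPM in sham against 151.3, 121.6 and 165.7 CPM after injury. Sham replicate 1 was highest and injured replicate 2 lowest, with the groups overlapping. The log2 fold change was -0.04 ± 0.23 (SE), with a 95% interval from -0.59 to 0.51 (edgeR adjusted p = 0.973).

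**Figure D2:**
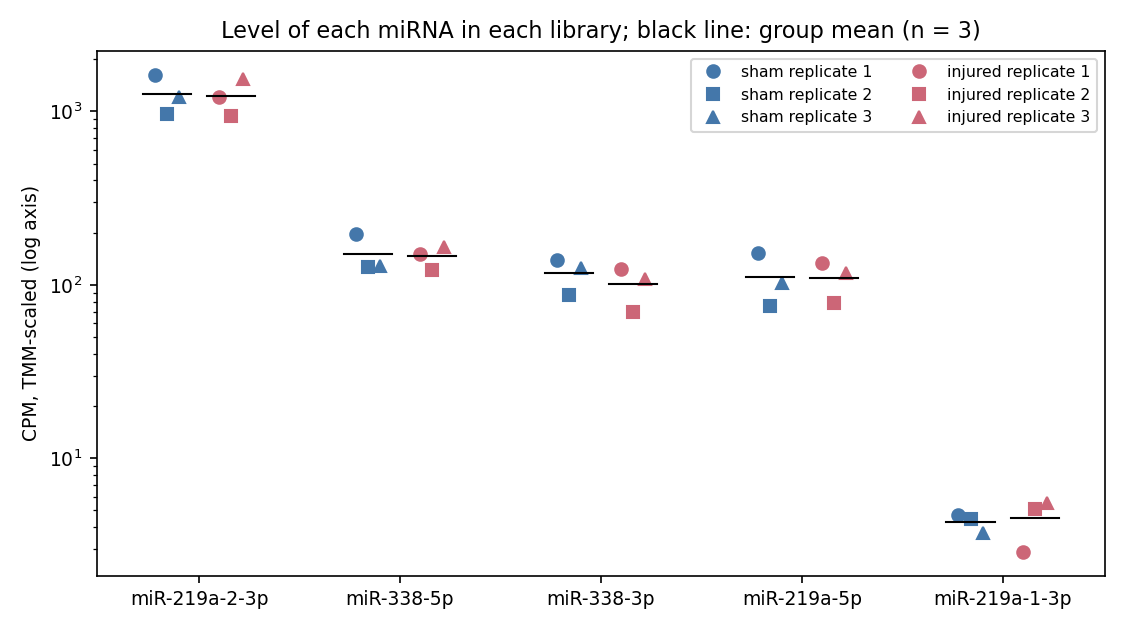
CPM after TMM scaling, on a log axis, for 5 miRNAs in each of 3 sham and 3 injured libraries, with the group mean as a black line. miR-219a-2-3p lies between 943 and 1632 CPM and miR-219a-1-3p between 2.89 and 5.55 CPM, and the sham and injured points overlap for each miRNA.

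In the comparison of injured with sham animals, 0 of the 8 members were called at an adjusted p of 0.05, where 0.00% of all 534 rows tested were called. At an unadjusted p under 0.05 there were 12 of 534 rows and no member, and 0 rows were called by limma-voom, by limma on log2(TPM + 1) or by DESeq2. Of the 8 members, 7 had a log2 fold change under 0 and 1 had one above 0. Their median was -0.05, beside 290 negative and 244 positive and a median of -0.03 over all rows tested. The 7 negative rows include both names of 3 pairs, so they stand for 4 measurements. The sign of each member's fold change turned under at least 2 of the alternatives tried, among them leaving out single libraries. The groups of 3 libraries did not overlap for 0 of the 8 members and for 7.87% of all rows. The 95% interval ran from 0.56-fold to 1.33-fold of the sham level for miR-338-3p, from 0.61-fold to 1.64-fold for miR-219a-5p and from 0.67-fold to 1.42-fold for miR-338-5p.

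**Figure D3:**
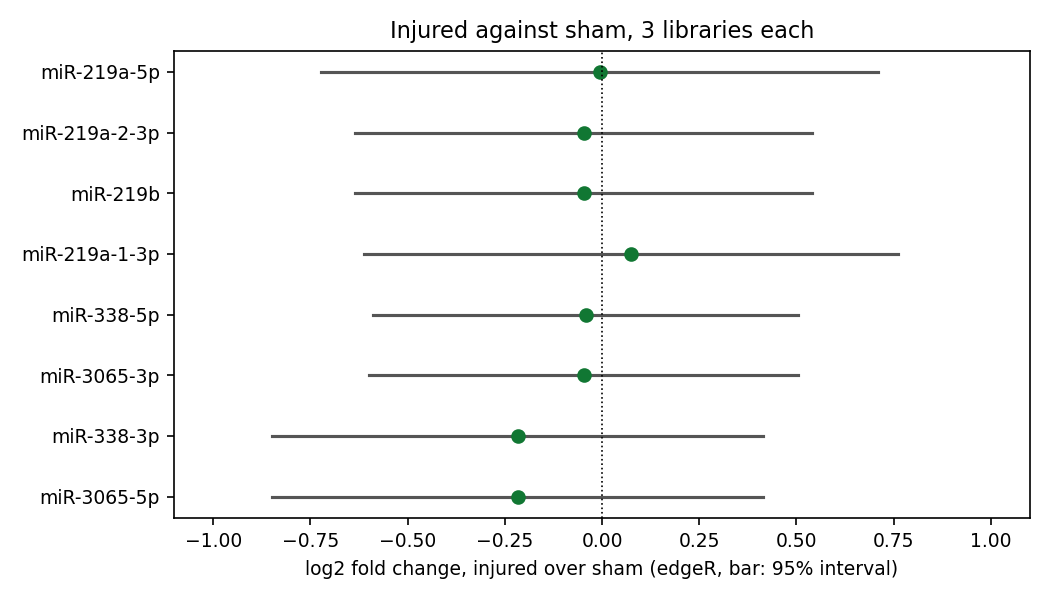
Log2 fold change of injured over sham for the 8 rows (points) with the 95% interval from edgeR (bars, 3 libraries per group). All 8 intervals include 0, and rows of an antisense pair repeat each other.

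The order of levels was compared within libraries, where it does not depend on scaling. Small RNA reads cover the whole mature molecule, so counts were not divided by length, and the members' lengths run from 20 to 24 bases. Because adapters ligate to different small RNAs with different efficiency, an order of counts need not be an order of molecules. miR-219a-2-3p had 7.66 to 9.38 times the reads of miR-338-5p, the next in order. miR-338-5p exceeded miR-338-3p in 6 of 6 libraries, by 1.03-fold in sham replicate 3 to 1.74-fold in injured replicate 2. miR-338-3p and miR-219a-5p did not differ beyond their spread, as miR-338-3p was higher in 2 of 6 libraries and the mean log2 ratio was -0.01 ± 0.20 (SD, n = 6). By mean CPM, miR-219a-2-3p ranked 62nd and miR-219a-5p 199th of the 534 rows, in which both names of pairs that share counts are ranked.

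Ratios between members, which do not depend on library scaling, were compared between groups with an exact two-sided permutation test, for which 0.10 is the smallest p at 3 against 3. The log2 ratio of miR-338-3p to miR-219a-5p was -0.14, 0.20 and 0.29 in sham replicates 1, 2 and 3 and -0.11, -0.17 and -0.11 in injured replicates 1, 2 and 3. The injured libraries lay close together and below 2 of the sham libraries, and sham replicate 1 lay among them. The sham mean was 0.12 ± 0.22 and the injured mean -0.13 ± 0.03 (SD over 3 libraries; exact permutation p = 0.3, adjusted over 3 ratios 0.6).

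The log2 ratio of miR-219a-2-3p to miR-219a-5p was 3.42, 3.67 and 3.56 in sham replicates 1, 2 and 3. In injured replicates 1, 2 and 3 it was 3.19, 3.58 and 3.70. It is not the arm ratio of 1 hairpin, because the miR-219a-5p row pools 2 hairpins. Injured libraries held the lowest and the highest ratio, and the difference of -0.06 was smaller than the SD of either group (exact permutation p = 0.9, adjusted 0.9). The log2 ratio of miR-338-5p to miR-338-3p was 0.50, 0.54 and 0.04 in sham replicates 1, 2 and 3 and 0.30, 0.80 and 0.61 in injured replicates 1, 2 and 3. The groups overlapped, with a difference of 0.21 (exact permutation p = 0.4, adjusted 0.6). Sham replicate 3 was the library in which these rows were nearly equal. As each name stands for an antisense pair, this ratio need not be the arm ratio of the miR-338 hairpin.

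**Figure D4:**
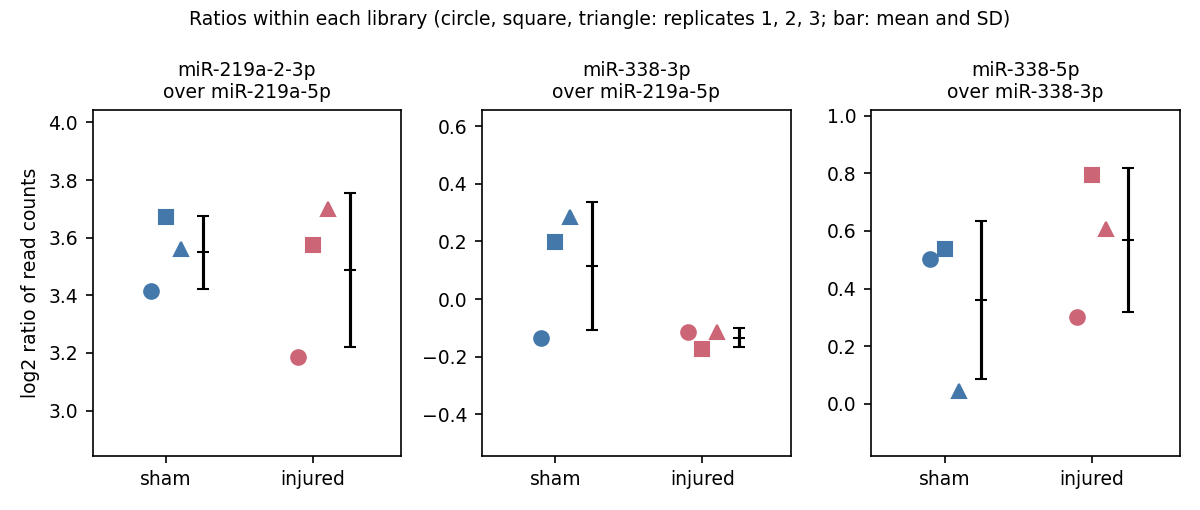
Log2 ratio of read counts of 2 miRNAs within each library, for 3 ratios, with points for replicates 1, 2 and 3 of the sham and injured groups and bars for the mean and SD. The injured libraries lie between -0.17 and -0.11 for miR-338-3p over miR-219a-5p, and the groups overlap in each panel.

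For all 5 measurements the spread between animals of either group was larger than the difference between the group means, and most members varied together. The CPM of miR-219a-5p differed 2.01-fold between its highest and lowest library, and that of miR-219a-2-3p 1.73-fold. Counting error was small beside this: 1.87% to 2.82% of the count for miR-219a-5p, against a coefficient of variation of 35.4% in sham and 25.3% in injured animals. For miR-219a-1-3p, with at most 128 reads in a library, counting error was 8.84% to 12.9%. These figures treat reads as independent, although the reads carried no molecular identifiers. The SD of log2 CPM within groups was 0.45 for miR-219a-5p and 0.30 for miR-338-5p, beside a median of 0.29 over all 534 rows.

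Of the 5 measurements, 4 had a similar profile over the libraries, and miR-219a-1-3p had another. Sham replicate 1 was 0.39 to 0.52 log2 units above the 6-library mean for miR-219a-2-3p, miR-338-5p, miR-338-3p and miR-219a-5p. Sham replicate 2 was 0.21 to 0.49 and injured replicate 2 was 0.26 to 0.60 units below it. Pearson correlations of log2 CPM over 6 libraries among these 4 ranged from 0.71, for miR-338-5p with miR-338-3p, to 0.93, for miR-219a-2-3p with miR-338-5p. With miR-219a-1-3p they ranged from -0.42 to 0.14. These values describe 6 libraries of 2 groups, and all rows of a library share its scaling and depth. Some rows that are not members had higher correlations with miR-219a-5p and with miR-338-3p, as given below.

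**Figure D5:**
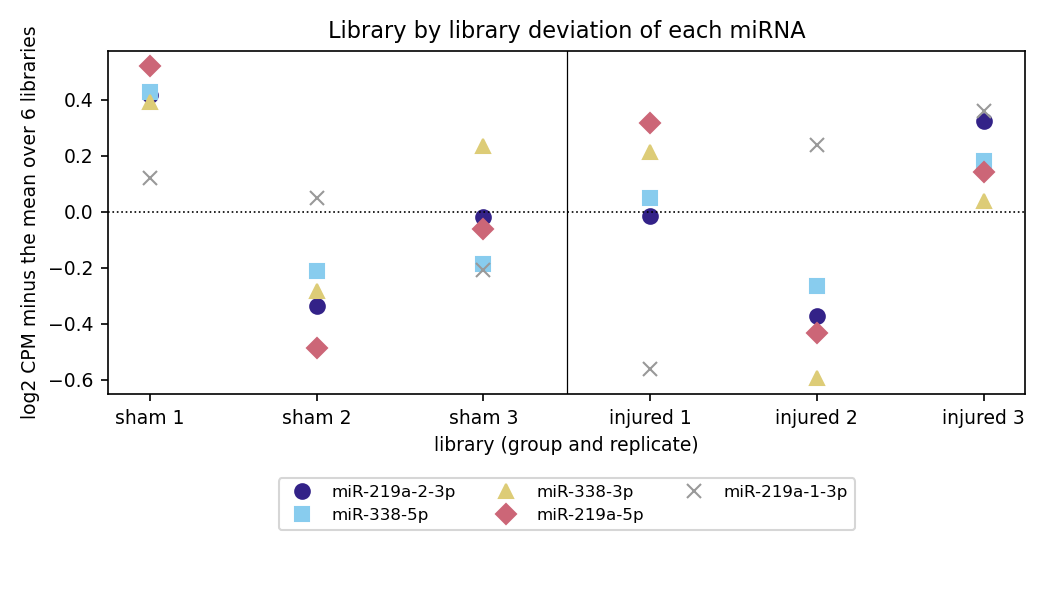
Log2 CPM of 5 miRNAs in each library minus the mean of that miRNA over the 6 libraries, with sham libraries on the left and injured libraries on the right. In sham replicate 1 all 5 lie above 0, and in sham replicate 2 and injured replicate 2 only miR-219a-1-3p does.

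Markers of other cell types were set beside this profile. The 3 astrocyte-enriched miRNAs miR-23b-3p, miR-27b-3p and miR-29a-3p summed to 11052 to 12132 CPM in sham against 10759 to 11926 CPM in injured libraries. Their log2 sum had a correlation of 0.90 with miR-219a-5p over 6 libraries, over a much narrower range than that miRNA. The 3 markers were highest in different libraries. These were sham replicate 1 for miR-27b-3p (6099 CPM), injured replicate 1 for miR-29a-3p (6310 CPM) and sham replicate 3 for miR-23b-3p (607.1 CPM). A correlation of the sum is therefore not one of each marker. With miR-219a-5p, the correlation was -0.49 for the 3 neuronal markers. These summed to 63122 to 114230 CPM in sham against 96833 to 119840 CPM in injured libraries. The neuronal sum was mostly miR-128-3p, at 56901 to 115440 CPM, against 4012 to 6024 CPM for miR-124-3p and 180 to 293 CPM for miR-137-3p. It therefore does not speak for the 3 markers singly. The correlation was -0.74 for the choroid plexus markers miR-204-5p and miR-211-5p, at 468.5 to 573.2 and 449.5 to 626.5 CPM. That sum was nearly all miR-204-5p, as miR-211-5p had at most 3.02 CPM. The endothelial pair miR-126a-3p and miR-126a-5p summed to 5570 to 6649 and 5048 to 6986 CPM, the mural pair miR-143-3p and miR-145-5p to 19274 to 30074 and 22840 to 40077 CPM, and 4 muscle miRNAs to 242.2 to 413.4 and 188.0 to 269.1 CPM. Correlations with miR-219a-5p were -0.52 for the endothelial, -0.62 for the mural and -0.63 for the muscle sum. A negative value was thus not particular to the neuronal and choroid plexus markers.

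Of the 9 cell type lists, only the summed myeloid and the summed red cell markers had separate ranges in the groups. The groups overlapped for the sums of the other lists and for every member. The 3 myeloid markers miR-223-3p, miR-142-3p and miR-142-5p summed to 36.2 to 42.4 CPM in sham against 29.4 to 34.7 CPM in injured libraries. The red cell markers, miR-451-5p with both arms of miR-144, summed to 51.8 to 92.7 and 23.5 to 43.1 CPM. Within these lists only miR-142-5p and miR-451-5p separated the groups singly, as did 7.87% of all rows, and miR-223-3p, miR-142-3p and both arms of miR-144 overlapped. No test of these sums was made, and with miR-219a-5p their correlations over 6 libraries were -0.07 and -0.55. For the miR-200 family it was 0.03, although its 2 highest libraries were the highest and among the lowest for miR-219a-5p. Without these 2 libraries the log2 fold change of miR-219a-5p was 0.52 (edgeR adjusted p = 0.990), that of miR-219a-2-3p 0.36 and that of miR-338-3p 0.16, each of opposite sign to the value with all 6 libraries. The part of tissue makeup in the members' spread was not tested.

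Other miRNAs with a reported role in the oligodendrocyte lineage were described from a list of 13, of which 12 were tested and miR-335, with at most 12 reads in a library, was not. None passed an adjusted p of 0.05 in either direction, where 0.00% of all 534 rows did. Of the listed miRNAs, 9 had negative and 3 positive log2 fold changes, beside 290 negative and 244 positive over all rows tested. The median of the list was -0.04, beside -0.03 over all rows. The largest differences were in miR-23a-3p, which favours differentiation by repressing lamin B1, at -0.48 ± 0.28 (SE), and miR-7a-5p, a miRNA of precursors and of neurons, at 0.45 ± 0.41. miR-23a-3p had 420.7, 262.1 and 521.1 CPM in sham replicates 1, 2 and 3 and 312.9, 225.9 and 324.8 CPM in injured replicates 1, 2 and 3, with overlapping groups. miR-212-3p, which falls as rat precursors mature, had -0.43 ± 0.23, and miR-138-5p, which promotes early differentiation, had -0.04 ± 0.17. miR-17-5p and miR-19b-3p, of the cluster that drives precursor proliferation, had -0.28 ± 0.31 and -0.03 ± 0.28. miR-27a-3p had 0.19, miR-32-5p, which acts on myelin genes in mice, -0.12, miR-145-5p -0.06, miR-125a-3p -0.04, miR-204-5p 0.03 and miR-9a-5p -0.01, all as log2 fold changes. The counts of miR-9a-5p were shared with antisense miR-9b-3p to within 0.241%, and miR-204-5p and miR-145-5p are also markers of choroid plexus and mural cells.

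The miRNAs whose log2 CPM was most like that of the members were ranked by Pearson correlation over the 6 libraries, among 324 rows with a mean of at least 10 CPM, leaving out the members and second names of near-equal pairs. For miR-219a-5p the 5 highest were miR-181c-5p (0.97), miR-186-5p (0.96), miR-19b-3p (0.95), miR-125a-5p (0.94) and a predicted miRNA without a miRBase name (0.93). All 5 were above its correlations with miR-338-5p (0.90), miR-219a-2-3p (0.89) and miR-338-3p (0.87). miR-19b-3p moved over a range like that of miR-219a-5p, from 41.3 CPM in sham replicate 2 to 74.6 CPM in sham replicate 1. miR-186-5p ranged only from 428.4 to 510.1 CPM, so a high correlation did not mean a change of like size. For miR-338-3p the 5 highest were miR-582-5p (0.97), miR-221-5p (0.95), miR-410-3p (0.95), the same predicted miRNA (0.94) and miR-17-5p (0.93). These too were above its highest correlation with another of the 5 measurements, miR-219a-5p (0.87). With 6 libraries and 324 rows ranked, such values are a description of these libraries.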

How the data were processed

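Small RNA was sequenced from 6 rat libraries. Per the labels' protocols, total RNA libraries were made with a ligation-based kit and sized on a gel. Bowtie and build rn6 are named in the submitters' processing notes, with no word in the sources used here on the counter, miRNA annotation or strand handling. The authors deposited raw read counts and TPM values per row, per the file headers. The deposited TPM values equal the count over the library total times 1000000, to within 4.66e-10, with no length term.

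All rows were tested with edgeR 4.0.16 in R 4.3.3 (quasi-likelihood F-test, TMM, filterByExpr with minimum count 10 and total 15, Benjamini-Hochberg adjustment, calls at 0.05), sham against injured, 3 libraries each. SE is the absolute log2 fold change over the square root of F. Log2 CPM used a prior count of 2 and ratios a pseudocount of 0.5. Near-equal rows had mean counts of at least 100. Alternatives used DESeq2 1.42.0, limma 3.58.1, other scalings, filters and left-out libraries. The fits were tested on simulated data. All 8 members and 614 of 676 miRBase rows matched RefSeq sequences. Named miRNAs are the members, the lineage list, cell markers and the 5 most correlated rows. Members and lists were chosen with earlier results of these data known.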

Additional observations from a re-analysis of the deposited data

How the results depend on the processing

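No member was called under any alternative in which it was tested, which was 17 for 6 members and 16 for miR-219b and miR-3065-5p, left out where 1 row per near-equal pair was kept, and the smallest adjusted p of a member was 0.676, for miR-338-3p. Over all rows 0 were called, except that 1 row, miR-293-5p, which is no member, was called when sham replicate 1 and injured replicate 2, the libraries with most miR-200, were left out together. As the log2 fold changes lie near 0, their sign was not stable. Without these 2 libraries it turned positive in each negative member, at 0.52 for miR-219a-5p, 0.36 for miR-219a-2-3p and miR-219b, 0.34 for miR-338-5p and miR-3065-3p and 0.16 for miR-338-3p and miR-3065-5p. Upper-quartile factors, which moved the median of all rows from -0.03 to 0.12, gave 0.13 for miR-219a-5p, 0.11 for miR-219a-2-3p, miR-219b and miR-338-5p and 0.10 for miR-3065-3p. miR-219a-5p was also positive with RLE factors (0.022), DESeq2 (0.023), no filter (0.019), a filter at 1 CPM (0.012), limma-voom (0.018), 1 row per near-equal pair (0.015) and miRBase names only (0.024). miR-219a-1-3p turned to -0.023 with limma on log2(TPM + 1).

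Leaving out 1 library at a time gave log2 fold changes of -0.18 to 0.34 for miR-219a-5p, -0.21 to 0.21 for miR-219a-2-3p and miR-219b, -0.068 to 0.32 for miR-219a-1-3p, -0.14 to 0.23 for miR-338-5p, -0.15 to 0.23 for miR-3065-3p and -0.38 to 0.0073 for miR-338-3p and miR-3065-5p. Positive values for miR-219a-5p came without sham replicate 1 (0.34) and without injured replicate 2 (0.20). The log2 ratio of miR-219a-2-3p to miR-219a-5p differed by -0.17 to 0.089 between groups, and the other 2 ratios kept their sign. At a tolerance of 0.1% there were 15 near-equal pairs of rows, against 24 at 1% and 30 at 5%. These alternatives show where a sign or a count moved, and why it moved was not tested. No paired analysis was possible because the labels give no replicate numbers. Depth was lowest for miR-219a-1-3p, at 60 to 128 reads.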
